A study of Homo sapiens with 6 samples.

Results

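The 34 genes described here encode the proteins that license replication origins, build and run the replication fork, supply its nucleotides and switch these genes on, the last being the factors E2F1 and E2F2 and the 2 E-type cyclins. They were taken by symbol from a deposited table of 40111 genes, and all 34 were found and passed the filter on low values that left 18548 genes for testing. The libraries come from BE(2)-M17, a human neuroblastoma cell line labelled as neuroblast. In the knockdown cells LINC00894, a long non-coding RNA, was lowered with a CRISPR-Cas9 vector (LINC00894 knockdown, 3 libraries), and the controls are the same line with the genotype label NC, titled Control (3 libraries). The labels name no other agent and do not say whether either set is 1 clone or a pool, which guide was used, or whether the 3 libraries of a group are separate cultures, so a p-value here reflects the scatter of these 6 libraries alone, which could be technical. Levels are FPKM, fragments per kilobase of gene model, scaled to the assigned reads of the library. Log2 fold changes are knockdown over control on the log2(FPKM + 0.1) scale, and a gene was called when limma, a linear model fitted across all 18548 genes, gave an adjusted p under 0.05.

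Eukaryotic replication origins are licensed in G1, when the origin recognition complex, CDC6 and CDT1 load the MCM helicase onto DNA as an inactive double ring. In S phase CDC45 and the GINS complex join each MCM ring to make the active helicase, a primase and polymerases copy the strands, and PCNA, loaded by replication factor C, holds the polymerases on the template. Most of these genes are transcribed in late G1 by E2F factors that the retinoblastoma family of pocket proteins restrains until cyclin E and its kinase inactivate them, and they are high in cells that divide, such as neuroblastoma cells in culture.

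The promoters of several of these genes carry the letters that E2F factors bind, and these stretches are shown because E2F1 itself was among the genes that changed. Promoter windows of 250 bases before to 50 bases after each RefSeq transcript start (GRCh38.p14) were searched on both strands for TTTGGCGC, TTTCGCGC, TTTGCCGC and TTTCCCGC. A window was held for 31 of the 34 genes, the others being MCM4, MCM5 and CCNE2. At least 1 exact match was found for 19 of the 31 genes (61.3%), against 6.64% of 10972 tested genes with a window, 30.9% of 55 further replication genes and 12% of 25 mitosis genes. The CCAAT letters, searched in the same way, were found for 19 of the 31 genes (61.3%), against 43.3% of the tested genes. They were found for 52.7% of the further replication genes and 80% of the mitosis genes. Upstream stretches are given for 6 of the genes with a match, namely the 2 E2F factors, 3 MCM subunits and PCNA, a selection made after the values were seen and not the full set. They run 5′ to 3′ on the gene's own strand, the minus strand for all 6, with the matches in capitals.
E2F1, chr20:33686386-33686433: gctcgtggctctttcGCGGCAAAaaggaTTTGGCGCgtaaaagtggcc
E2F2, chr1:23531253-23531290: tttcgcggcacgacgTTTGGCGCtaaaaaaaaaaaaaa
MCM3, chr6:52284894-52284931: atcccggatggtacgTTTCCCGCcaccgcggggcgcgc
MCM6, chr2:135876507-135876610: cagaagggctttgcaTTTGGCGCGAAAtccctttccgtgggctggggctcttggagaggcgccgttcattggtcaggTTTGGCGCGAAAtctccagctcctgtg
MCM7, chr7:100101398-100101421: acgtggggggcgacgTTTCGCGCc
PCNA, chr20:5126659-5126696: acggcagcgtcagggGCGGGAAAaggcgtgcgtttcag
E2F1 has 2 matches close to its start on opposite strands. In MCM6 each capital run is 2 overlapping matches, TTTGGCGC on one strand and TTTCGCGC on the other, so that its 4 matches occupy 2 places. MCM3 has a further match that spans its start, and MCM7 a further one upstream. RRM2, the gene with the deepest fall below, has no match in either of its windows. The 19 genes with a match had a median log2 fold change of -0.03, with 1 rise and 1 fall called. The 12 without a match had a median of 0.04, with 0 rises and 1 fall. Calls this few cannot show whether a match goes with a change.

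Depth was between 22898079 and 28782977 assigned reads in the knockdown libraries. It was 29276653, 48089716 and 43219009 in controls 1, 2 and 3, so that control 1 lay nearest to the knockdowns in depth. None of the 34 genes had fewer than 510 reads in any library. LINC00894 itself measured 1.10, 1.30 and 0.867 FPKM in the knockdowns, against 2.00, 2.24 and 2.21 FPKM in the controls, and fell by 0.93 on the log2 scale (SE 0.17, limma adjusted p = 0.0406). The neuroblast label was not borne out by the markers: of 13 listed, 11 were found in the table and 7 of those stayed below 0.5 FPKM in all 6 libraries. MYCN, which BE(2)-M17 is known to carry in amplified form, lay between 0.162 and 0.267 FPKM in the knockdowns and between 0.168 and 0.235 FPKM in the controls. Only GATA3, ISL1, HAND2 and CHGA reached 0.5 FPKM in any library. The 15 stromal, epithelial and glial markers summed to between 43.7 and 45.0 FPKM in the knockdowns and between 44.7 and 48.1 FPKM in the controls, led by the epithelial keratin KRT8, and the neuroblast markers summed to between 13.2 and 14.01 FPKM in the knockdowns and between 10.4 and 13.2 FPKM in the controls. The summed level of 17 blood cell markers was 904, 526 and 617 FPKM in the knockdowns, against 9.90, 6.08 and 318 FPKM in controls 1, 2 and 3. HBB, the beta chain of hemoglobin, was the highest of the 17 in every library but control 3. There S100A9 was highest at 202 FPKM, against 61.8 FPKM for HBB. Without HBB, HBA1 and HBA2 the sums were 57.5, 154 and 180 FPKM in the knockdowns and 4.92, 2.92 and 253 FPKM in the controls, which overlap. Their part in the results below was not tested, and in bulk RNA fewer cells of a type and less RNA per cell cannot be told apart. Control 1 stood apart from controls 2 and 3, as it was nearer to the knockdown mean in 60.8% of all genes tested and in 20 of the 34 replication genes (58.8%). It was the lowest control for 21 of the 34 genes and the highest for 8, and the calls are therefore given with and without it.

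Replication genes changed little as a group. RRM2 and E2F1 fell, GINS3 rose and the other 31 genes did not pass, which is 5.88% of the 34 lower and 2.94% higher, beside 2.06% lower and 4.14% higher among all genes tested (limma; 6.2% in either direction). With counts this small the list cannot be set apart from the other genes. Every one of the 34 log2 fold changes lay between -0.39 and 0.45. Of the 34, 8 genes had an unadjusted p under 0.05 (limma), beside 6050 of the 18548 genes tested. The median over the 34 genes was -0.02, beside 0.07 over all genes. Leaving out any library but control 1 left 0 of the 18548 genes past the limma threshold, the 34 included. These fits therefore say nothing about single genes by their calls. At an unadjusted p under 0.05 (limma) they held 5 to 9 of the 34, beside 3676 to 4530 of all genes. The log2 fold changes over those 5 fits were between -0.39 and -0.37 for RRM2, between -0.39 and -0.33 for E2F1 and between 0.39 and 0.52 for GINS3. In 8 genes all 3 knockdowns lay below all 3 controls and in 5 genes above them (23.5% and 14.7%, beside 14.3% and 23.9% of all genes, 38.2% together), while the groups overlapped in 21.

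The direction of 11 of these small differences depended on how libraries were scaled. With total reads as the scale 19 genes were lower and 15 higher in the knockdown, and with median-of-ratios size factors 30 were lower and 4 higher, since that scaling moved the median of all genes by -0.12. RRM2, E2F1 and RFC4 were then called lower and 0 genes higher (beside 2.67% lower and 1.82% higher among all genes, 4.49% together), and the median of the 34 genes was -0.15, beside -0.05 over all genes. Relative to all genes the list lay lower by about the same amount under both scalings. That agreement was fixed in advance, since 1 factor per library moves all genes nearly alike. With limma-voom, which weights the recovered reads by their precision, RRM2, E2F1 and MCM3 were called lower and GINS3 higher, against 4.5% lower and 12.4% higher among all genes, 16.9% together. With limma-voom and size factors, added after the data were seen, RRM2, E2F1, MCM3, RFC4, LIG1, MCM5 and CDT1 were called lower and 0 genes higher, against 7.16% lower and 7.08% higher among all genes, 14.2% together. The authors' deposited table, whose group means are read counts divided by size factors, also has 30 of the 34 genes lower and 4 higher. In the authors' deposited table RRM2, E2F1, MCM3, RFC4, CDC6, CDT1 and LIG1, 7 genes in all, have an adjusted p under 0.05 and are lower, beside 4.22% of all genes lower and 3.23% higher, or 8.93% lower among the genes tested here. None of the 34 is in the authors' deposited table of 1867 selected genes, which holds absolute log2 fold changes of 1 or more.

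**Figure D1:**
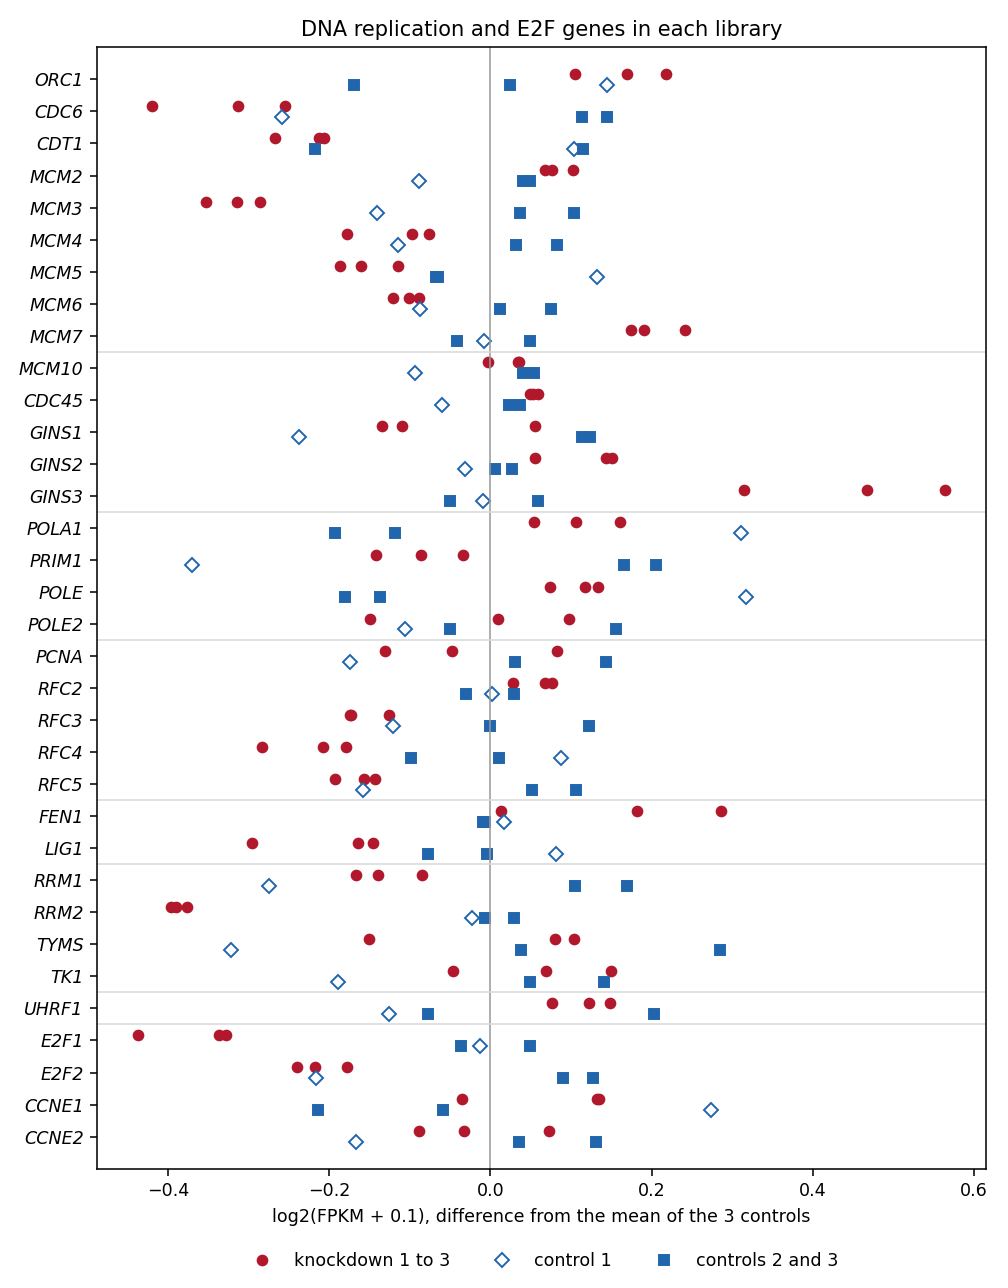
Level of each of the 34 genes in each library, as log2(FPKM + 0.1) minus the mean of the 3 controls, with genes in order of role and grey lines between roles. Red circles are knockdown libraries, the open diamond is control 1 and blue squares are controls 2 and 3. RRM2, E2F1 and MCM3 lie left of all controls and GINS3 and MCM7 right of them, while control 1 lies beside the knockdowns for CDC6, RFC5 and E2F2 and beyond them for PRIM1, POLA1 and POLE.

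Origin licensing genes held no call among 9, with 6 lower and 3 higher and a median log2 fold change of -0.12. CDC6, the ATPase that helps load the helicase, measured 28.9, 25.7 and 27.7 FPKM in the knockdowns, against 28.8, 38.1 and 37.3 FPKM in the controls. Control 1 fell within the knockdown range for CDC6 and only controls 2 and 3 were higher, and the log2 fold change was -0.33 (SE 0.12, limma adjusted p = 0.119). CDT1, the loading factor that geminin blocks, had 51.0, 49.1 and 51.2 FPKM in the knockdowns and 63.5, 64.0 and 50.8 FPKM in the controls, so that control 3 lay within the knockdown range. ORC1, the largest subunit of the origin recognition complex, had 22.0, 20.3 and 21.2 FPKM in the knockdowns and 20.9, 19.2 and 16.8 FPKM in the controls, and did not pass at 0.16 (SE 0.09).

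Among the 6 subunits of the MCM helicase the transcripts did not differ in the same direction. MCM3 had 73.5, 71.6 and 74.9 FPKM in the knockdowns, against 82.9, 98.2 and 93.7 FPKM in the controls. All 3 knockdowns lay below all 3 controls for MCM3, but it missed the threshold at -0.32 (SE 0.08, limma adjusted p = 0.0591). MCM7 had 91.1, 88.0 and 87.0 FPKM in the knockdowns, against 76.6, 74.8 and 79.7 FPKM in the controls. Here all 3 knockdowns lay above all 3 controls, again without passing, at 0.20 (SE 0.06, limma adjusted p = 0.0752) and at 0.08 with median-of-ratios size factors. MCM4 had 68.1, 72.0 and 73.1 FPKM in the knockdowns and 71.2, 81.6 and 78.8 FPKM in the controls, MCM5 had 16.3, 16.6 and 17.1 FPKM in the knockdowns and 20.3, 17.7 and 17.7 FPKM in the controls, and MCM6 had 40.0, 39.2 and 39.7 FPKM in the knockdowns and 40.1, 44.9 and 43.0 FPKM in the controls. MCM2 had 41.5, 42.3 and 41.3 FPKM in the knockdowns and 37.0, 40.5 and 40.7 FPKM in the controls. MCM5 and MCM6 were also below all controls, at -0.15 and -0.10, MCM2 was above them at 0.08 with total reads and had -0.04 with size factors, and MCM4 overlapped at -0.12, and none of these 4 passed.

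Shares of a complex do not depend on the scaling of a library, since a common factor cancels. MCM3 made up 22.2%, 21.7% and 22.5% of the summed MCM2 to MCM7 FPKM in the knockdowns, against 25.3%, 27.5% and 26.5% in the controls. MCM7 made up 27.6%, 26.7% and 26.1% in the knockdowns, against 23.3%, 20.9% and 22.5% in the controls. In these shares MCM7 ranked first in all 3 knockdowns and MCM3 in all 3 controls. A ranking between genes depends on the gene model lengths used, 3645 bases for MCM3 and 4386 for MCM7. The sum of the 6 subunits was 331 ± 1.83 FPKM in the knockdowns and 347 ± 16.1 FPKM in the controls (SD, n = 3 each), and the groups overlapped. The ratio of MCM3 to MCM7, chosen after the values were seen, was 0.806, 0.813 and 0.862 in the knockdowns, against 1.08, 1.31 and 1.18 in the controls, with no overlap, and a two-sided exact permutation test of 3 against 3 cannot give a p below 0.1. MCM2 shares 23.6% of its exon bases with other genes, mainly AC023593.1 on the other strand, and MCM7 shares 8.94%, mainly with AP4M1 on the other strand, and the library protocol describes no step that marks strand, so reads there cannot be told apart.

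**Figure D2:**
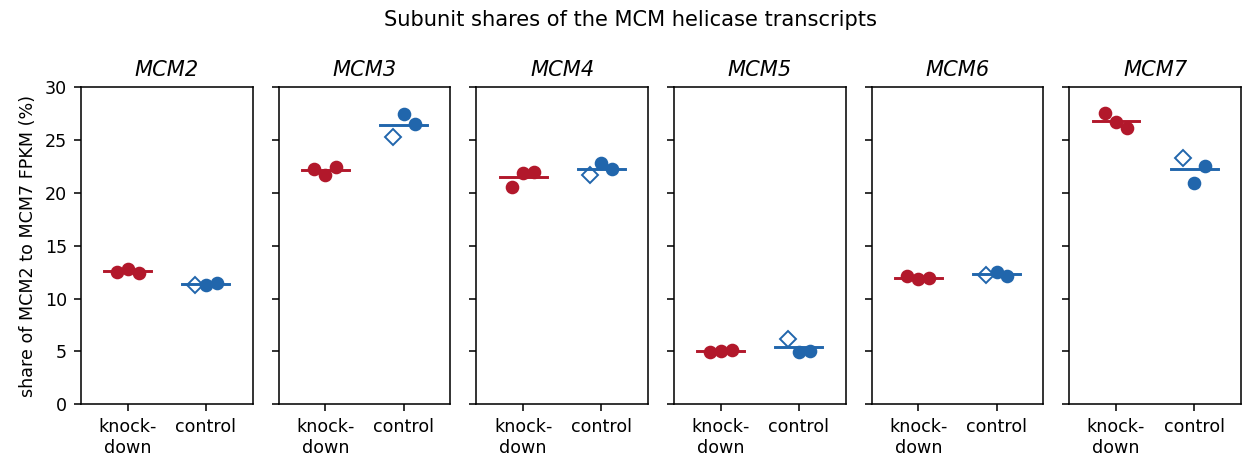
Share of each MCM subunit in the summed FPKM of MCM2 to MCM7 (%), per library, with knockdowns in red on the left and controls in blue on the right of each panel, control 1 as an open diamond and lines at group means. MCM3 averages 22.1% in the knockdowns and 26.4% in the controls, and MCM7 averages 26.8% in the knockdowns and 22.3% in the controls, while MCM4 and MCM5 overlap.

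Helicase activation held the 1 rise among the 34 genes, that of GINS3 at chr16:58295080-58406144 on the plus strand (GENCODE 29, GRCh38). GINS3, a subunit of the GINS ring that joins CDC45 and the MCM helicase, measured 12.6, 10.5 and 11.7 FPKM in the knockdowns, against 8.41, 8.17 and 8.82 FPKM in the controls. All knockdowns were above all controls, control 1 lay between controls 2 and 3, and the log2 fold change was 0.45 (SE 0.09, limma adjusted p = 0.041). With median-of-ratios size factors GINS3 no longer passed, at 0.33 (limma adjusted p = 0.078). Strand matters here too, as 10.9% of the exon bases of GINS3 overlap a transcript on the other strand, AC009118.2. The partners of GINS3 held no call. GINS1 had 19.3, 16.9 and 17.2 FPKM in the knockdowns, against 15.7, 20.3 and 20.1 FPKM in the controls, and GINS2 had 18.5, 17.3 and 18.4 FPKM in the knockdowns, against 16.3, 16.96 and 16.7 FPKM in the controls. GINS1 had -0.06 and GINS2 0.12, and GINS4, which is outside the 34 genes, had -0.19, none of them past the test. GINS3 made up 22.0%, 20.1% and 21.5% of the summed FPKM of GINS1 to GINS4 in the knockdowns, against 17.6%, 15.2% and 16.2% in the controls, a share that library scaling cannot move. CDC45, the other helicase cofactor, did not pass, with 31.95, 31.8 and 31.7 FPKM in the knockdowns and 29.4, 31.5 and 31.2 FPKM in the controls, and MCM10, which helps the helicase start, had 31.4, 30.5 and 31.3 FPKM in the knockdowns, against 28.7, 31.5 and 31.8 FPKM in the controls, a log2 fold change of 0.02 with total reads and -0.10 with size factors.

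Polymerase and primase genes separated control 1 from the other controls more than they separated the groups. This was not particular to them, as TYMS, RRM1, CCNE1 and GINS1 did so too, while RRM2, E2F1 and GINS3 did not. POLE, the catalytic subunit of the leading-strand polymerase epsilon, had 14.9, 15.4 and 15.5 FPKM in the knockdowns, against 17.6, 12.9 and 12.5 FPKM in controls 1, 2 and 3. POLA1, the catalytic subunit of polymerase alpha, had 7.32, 7.89 and 7.59 FPKM in the knockdowns, against 8.77, 6.15 and 6.48 FPKM in the controls. For POLE and POLA1 the knockdowns lay between control 1 above and controls 2 and 3 below. PRIM1, the small primase subunit, showed the mirror image, with 16.7, 16.1 and 15.5 FPKM in the knockdowns, against 13.2, 19.7 and 19.2 FPKM in the controls. With all 6 libraries these 3 genes had log2 fold changes of 0.11, 0.11 and -0.09 for POLE, POLA1 and PRIM1 and limma adjusted p between 0.611 and 0.724, and without control 1 they had 0.27, 0.26 and -0.27 and passed (limma adjusted p of 0.00806, 0.0205 and 0.00948). POLE2, the second subunit of polymerase epsilon, had 8.91, 10.6 and 9.96 FPKM in the knockdowns, against 9.19, 9.56 and 11.03 FPKM in the controls, and did not pass at -0.01. The gene model behind POLA1 was 15547 bases, 2.45 times its exon union in GENCODE 29, so its level is not comparable with that of other genes, and PRIM1 shares 21.6% of its exon bases with other genes, mainly AC117378.1 on the same strand, so its value is uncertain.

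PCNA, the sliding clamp, was the most abundant of the 34 transcripts per length with 200.5, 173 and 183 FPKM in the knockdowns and 168, 193 and 209 FPKM in the controls. The groups overlapped for PCNA, which did not pass at -0.03 (SE 0.10, limma adjusted p = 0.852). The 4 clamp loader genes RFC2 to RFC5 had log2 fold changes of 0.06, -0.16, -0.22 and -0.16 and none passed. RFC4 was the clearest of them, with 21.9, 23.5 and 23.1 FPKM in the knockdowns, against 28.4, 26.9 and 24.9 FPKM in the controls, no overlap and a limma adjusted p of 0.0918. With median-of-ratios size factors RFC4 was called, at -0.35 (limma adjusted p = 0.0447). For RFC3 and RFC5 control 1, at 41.0 and 37.8 FPKM, lay beside the knockdowns, which were between 36.9 and 40.8 FPKM over both genes, and controls 2 and 3 lay higher, between 43.8 and 48.5 FPKM.

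The lagging strand genes did not pass. LIG1, the ligase that seals Okazaki fragments, had 9.78, 10.9 and 10.7 FPKM in the knockdowns, against 12.7, 11.99 and 11.4 FPKM in the controls, below all controls at -0.20 (SE 0.08, limma adjusted p = 0.131). FEN1, the flap nuclease that trims those fragments, had 50.1, 41.4 and 46.6 FPKM in the knockdowns, against 41.5, 40.8 and 40.8 FPKM in the controls, at 0.16 (SE 0.08). UHRF1, which guides the copying of DNA methylation behind the fork, had 14.6, 15.3 and 15.1 FPKM in the knockdowns, against 12.7, 13.1 and 15.9 FPKM in the controls, and did not pass either at 0.12 (SE 0.10).

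In nucleotide supply RRM2, the small subunit of ribonucleotide reductase and the one that limits the enzyme in S phase, fell by 23.6%. Its gene lies at chr2:10120698-10131419 on the plus strand in GENCODE 29 (GRCh38). It measured 18.4, 18.7 and 18.5 FPKM in the knockdowns, against 23.9, 24.8 and 24.2 FPKM in the controls. Both groups were tight, control 1 lay with the other controls, and the log2 fold change of RRM2 was -0.39 (SE 0.05, n = 3 per group, limma adjusted p = 0.0342), the smallest p of the 34. It was -0.40 without control 1 and -0.51 with median-of-ratios size factors. The gene model behind RRM2 was 9153 bases, 1.72 times the exon union in GENCODE 29, and 20.2% of that union is shared with the exons of AC007240.1 on the same strand, so its level is uncertain. RRM1, the large subunit, had 50.6, 51.6 and 53.6 FPKM in the knockdowns, against 46.9, 61.1 and 63.9 FPKM in the controls, with the knockdowns between control 1 and the others, and did not pass at -0.13 (SE 0.12). RRM2B, the p53-inducible small subunit that serves outside S phase, is not among the 34 genes and had 0.23 without passing, and RRM2 made up 20.9%, 21.1% and 20.5% of the summed FPKM of the 3 subunit genes in the knockdowns, against 27.2%, 24.7% and 23.4% in the controls. TYMS, which makes thymidylate, and TK1, which salvages thymidine, did not pass, at 0.01 (SE 0.16) and 0.06 (SE 0.10) with total reads and at -0.11 and -0.06 with size factors. TYMS had 10.2, 8.64 and 10.3 FPKM in the knockdowns, against 7.66, 9.86 and 11.7 FPKM in the controls, and TK1 had 27.0, 24.9 and 28.5 FPKM in the knockdowns, against 22.5, 26.6 and 28.4 FPKM in the controls. Both groups overlapped for each gene, with control 1 the lowest library. TYMS shares 46.6% of its exon bases with other genes, mainly ENOSF1 on the other strand, and its value is uncertain.

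E2F1, the activating E2F factor that drives many of these genes, fell by 22.5%. Its gene lies at chr20:33675683-33686404 on the minus strand in GENCODE 29 (GRCh38). It measured 16.4, 17.6 and 17.8 FPKM in the knockdowns, against 22.1, 23.1 and 21.8 FPKM in the controls. The groups did not overlap, control 1 lay between controls 2 and 3, and the log2 fold change of E2F1 was -0.37 (SE 0.06, n = 3 per group, limma adjusted p = 0.0379). It was -0.37 without control 1 and -0.49 with median-of-ratios size factors. E2F2, a second activator, had 13.2, 13.6 and 13.1 FPKM in the knockdowns, against 13.3, 16.4 and 16.9 FPKM in the controls, so that only controls 2 and 3 stood above the knockdowns, and it did not pass at -0.21 (SE 0.10). CCNE1 and CCNE2, the E-type cyclins that activate CDK2 at S phase entry, had 0.08 and -0.02 and limma adjusted p of 0.716 and 0.932. CCNE1 measured 12.5, 11.1 and 12.5 FPKM in the knockdowns, against 13.8, 10.9 and 9.82 FPKM in the controls. CCNE2 measured 5.07, 4.52 and 4.70 FPKM in the knockdowns, against 4.27, 4.93 and 5.28 FPKM in the controls, and it shares 37.1% of its exon bases with other genes, mainly INTS8 on the other strand.

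The other members of the E2F family, from the list of further replication genes, included 1 call, in the direction opposite to E2F1. E2F7, a repressor that occupies the same sites, rose to 10.1, 9.54 and 9.44 FPKM in the knockdowns, against 7.65, 7.63 and 7.82 FPKM in the controls, a log2 fold change of 0.33 (SE 0.07, limma adjusted p = 0.045), and the same gene missed the threshold with median-of-ratios size factors, at 0.21 (limma adjusted p = 0.121). E2F6, a repressor that does not bind pocket proteins, had 11.1, 11.7 and 10.7 FPKM in the knockdowns, against 10.1, 7.52 and 7.77 FPKM in the controls, and did not pass at 0.41 (limma adjusted p = 0.0849). E2F8, the close relative of E2F7, had 0.21, E2F3 0.18, E2F4 0.10 with total reads and -0.03 with size factors, and E2F5 -0.12, none past the test. E2F1 made up 16.9%, 18.6% and 18.6% of the summed E2F1 to E2F8 FPKM in the knockdowns, against 23.5%, 24.5% and 22.4% in the controls, and E2F7 made up 10.4%, 10.03% and 9.90% in the knockdowns, against 8.13%, 8.10% and 8.06% in the controls. The summed level was 96.0 ± 1.28 FPKM in the knockdowns and 95.1 ± 1.69 FPKM in the controls (SD, n = 3 each). The ratio of E2F1 to E2F7, chosen after the values were seen, was 1.62, 1.85 and 1.88 in the knockdowns, against 2.89, 3.03 and 2.78 in the controls.

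**Figure D3:**
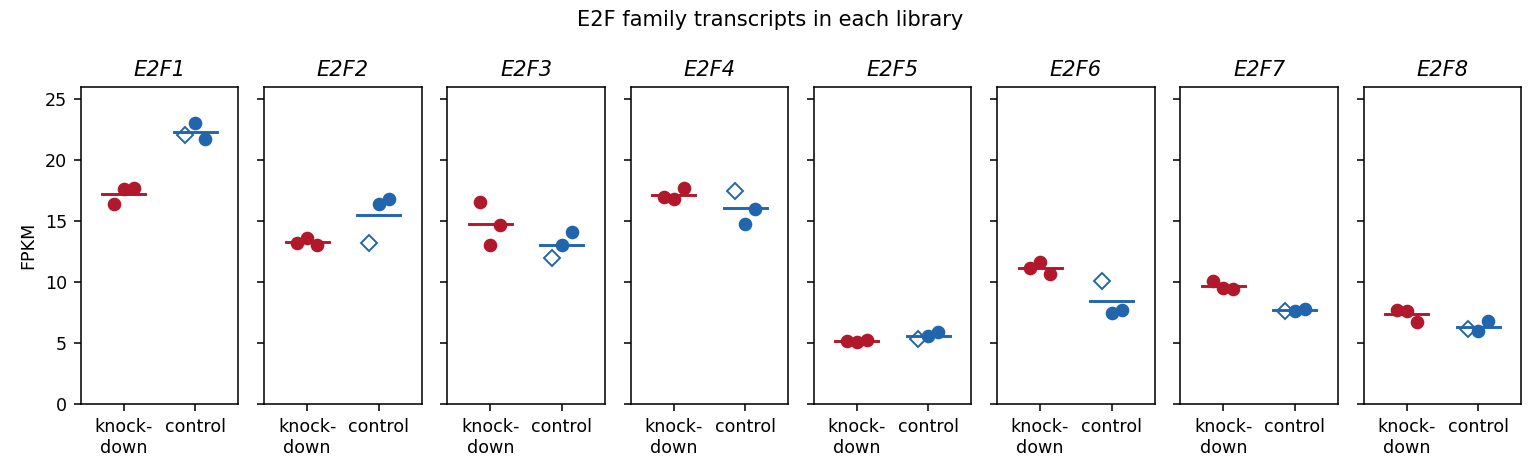
FPKM of the 8 E2F genes in each library, with knockdowns in red on the left and controls in blue on the right of each panel, control 1 as an open diamond and lines at group means. E2F1 lies lower in all 3 knockdowns, E2F7 higher, and for E2F2 and E2F6 control 1 lies nearer to the knockdowns than controls 2 and 3 do.

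Without control 1 the picture widened to 5 rises and 12 falls among the 34 genes (14.7% and 35.3%), beside 28% higher and 15.7% lower among all genes, 43.6% together. RRM2, E2F1 and GINS3 were called in both fits. The further falls were CDC6, MCM3, MCM4, MCM6, PRIM1, RFC3, RFC4, RFC5, RRM1 and E2F2, and the further rises were ORC1, MCM7, POLA1 and POLE, with log2 fold changes between -0.46 and 0.27 over these genes. The median of the 34 genes was then -0.11, beside 0.09 over all genes. Without control 1 and with median-of-ratios size factors, a combination chosen after the data were seen, 20 genes fell and GINS3 rose, beside 26.4% lower and 19.6% higher among all genes, 45.9% together. The median difference of control 1 from controls 2 and 3 was -0.13 over the 34 genes, beside 0.08 over all genes. The median difference of the knockdowns from control 1 was 0.04 over the 34, beside 0.02 over all genes. With control 1 removed, any feature common to it and the knockdowns appears as a difference between the groups, and the larger counts are to be read with that in mind.

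**Figure D4:**
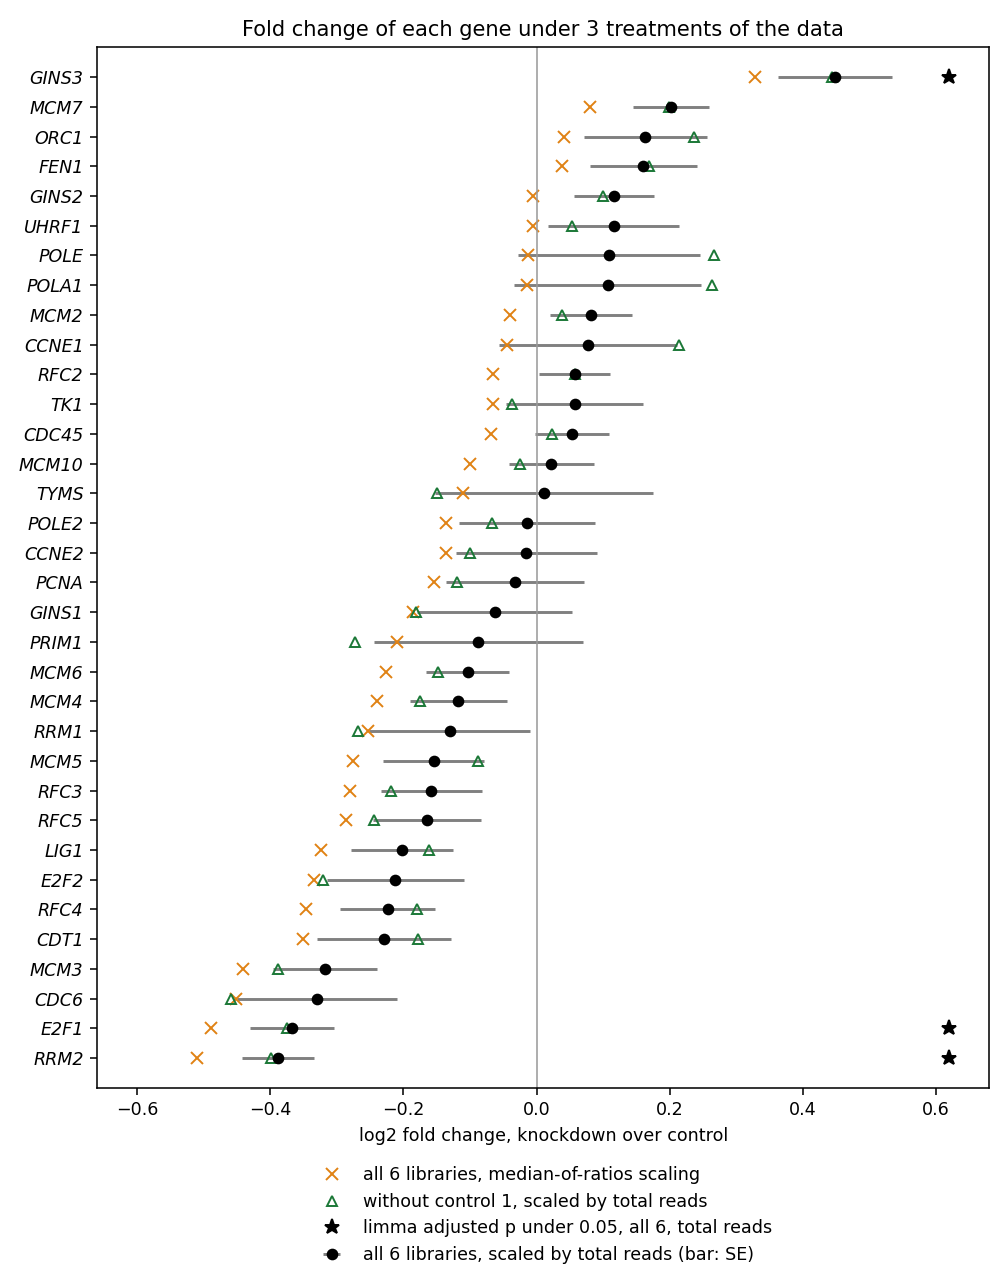
Log2 fold change of each of the 34 genes, knockdown over control, with black circles for all 6 libraries scaled by total reads (bars are SE), orange crosses for median-of-ratios scaling and green triangles without control 1, and stars at the right edge for limma adjusted p under 0.05 with all 6 libraries and total reads. The crosses lie to the left of the circles for every gene, and leaving out control 1 moves POLE and POLA1 to the right and PRIM1 and RRM1 to the left.

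A list of 71 further replication genes, all tested, held 3 rises and 6 falls, with a median log2 fold change of 0.05, or 4.23% higher and 8.45% lower beside 4.14% and 2.06% of all genes. The limma adjusted p of POLA2, POLD2 and RBL2 lay close to the threshold, at 0.0499, 0.0494 and 0.0491. The list held 3 rises and 3 falls when 0.01 FPKM was added before taking logs. RNASEH2A had as few as 52 reads in a library, TK2 153 and POLA2 269. Leaving out any library but control 1 gave 0 calls here, as among all genes. Over those fits 19 to 27 of the 71 had an unadjusted p under 0.05 (limma), beside 3676 to 4530 of the 18548 genes tested. The falls were those of 4 fork genes, POLA2, the second subunit of polymerase alpha, at -0.63, POLD2, a subunit of the lagging-strand polymerase delta, at -0.55, ATAD5, which unloads PCNA, at -0.46, and CLSPN, the checkpoint mediator claspin, at -0.43, and of HELLS, a chromatin remodeller, at -0.49 and RBL2, the pocket protein p130, at -0.30. The rises were POLE3, an accessory subunit of polymerase epsilon, at 0.45, ORC5, a subunit of the origin recognition complex, at 0.43, and E2F7. CLSPN had 10.4, 10.4 and 10.8 FPKM in the knockdowns, against 13.3, 14.3 and 15.1 FPKM in the controls, and POLE3 had 87.5, 81.9 and 82.2 FPKM in the knockdowns, against 60.2, 58.2 and 65.2 FPKM in the controls. In 14 of the 71 genes, CLSPN among them, all 3 knockdowns lay below all 3 controls. In 18, POLE3 among them, they lay above. These shares were 19.7% and 25.4%, beside 14.3% and 23.9% of all genes, 38.2% together. With median-of-ratios size factors only the falls of CLSPN, ATAD5 and RBL2 were called and 0 rises were. The 2 largest differences that did not pass were RNASEH2A, a subunit of the nuclease that removes RNA primers, at -0.61 and TK2, the mitochondrial thymidine kinase, at 0.55. By role, licensing and firing genes had a median of 0.09 over 14, fork genes -0.04 over 21, nucleotide genes -0.06 over 10, chromatin assembly genes 0.16 over 7, E2F partners and pocket proteins 0.18 over 11, and S phase kinases -0.12 over 8.

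Mitosis genes, whose products separate the copied chromosomes, were set beside the replication genes. Of 30 tested, 4 rose and 0 fell (13.3% higher, beside 4.14% higher and 2.06% lower among all genes), with a median of 0.26 with total reads and 0.14 with size factors. The median level of the 34 replication genes stood 0.25, 0.32 and 0.30 below that of the mitosis genes in knockdowns 1, 2 and 3, each gene taken as its log2 difference from its control mean, and it stood 0.23 below in control 1 and 0.09 and 0.11 above in controls 2 and 3. That difference between the lists does not depend on library scaling, and control 1 lay with the knockdowns in it. Leaving out any library but control 1 gave 0 limma calls among the mitosis genes, as it did among all genes. Over those fits 11 to 14 mitosis genes had an unadjusted p under 0.05 (limma), beside 3676 to 4530 of the 18548 genes tested. The median of the mitosis genes was then between 0.22 and 0.28. Without control 1 there were 19 rises and 3 falls (63.3% and 10%), beside 28% higher and 15.7% lower among all genes. No test of the difference between the lists was made.

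**Figure D5:**
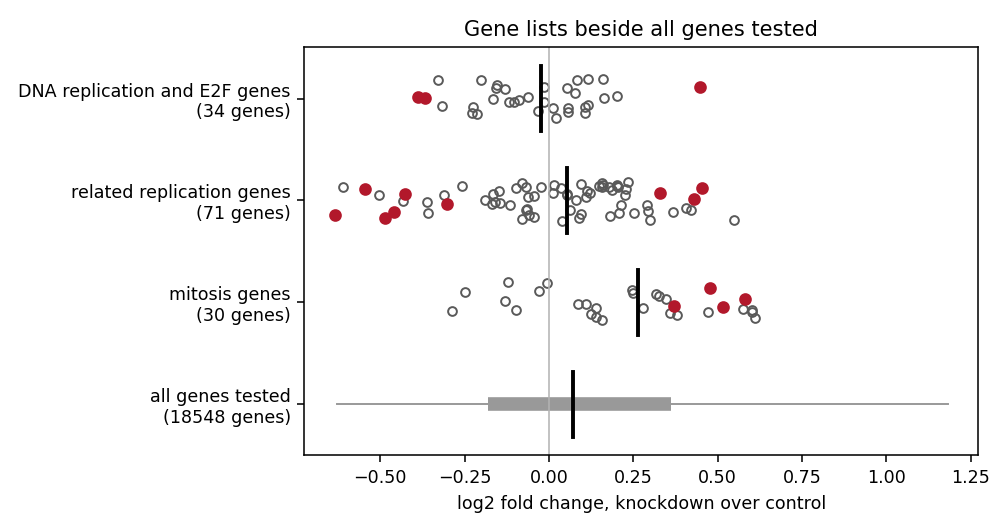
Log2 fold change of each gene in 3 lists, knockdown over control, scaled by total reads, with filled red circles for genes with a limma adjusted p under 0.05 and black lines at medians. The lowest row gives all 18548 genes tested, as a line from the 5th to the 95th percentile and a box from the 25th to the 75th. Medians are -0.02 for the 34 replication genes, 0.05 for the further replication genes, 0.26 for mitosis genes and 0.07 for all genes.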

How the data were processed

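Per the labels' protocols, oligo-dT selected RNA was made into libraries with no step described that marks strand, and the submitters' processing notes list HISAT2 without a version. For the counter, the genome build and the annotation the entry is: not given in the sources used here. FPKM is what the authors deposited for each library, a unit judged from the numbers. Per the file headers, the deposited table also holds the mean read signal of each group, a log2 fold change and, for each gene, p-values before and after adjustment, which are quoted as the authors' own. Whole reads were recovered from FPKM and the deposited group means (100% of values above 0 whole within 0.1 read). All 6 columns matched a sample title and 0 did not. The deposited unit being FPKM, the test was limma 3.58.1 (R 4.3.3) on log2(FPKM + 0.1), with its variance trend, group as the only term, genes reaching 0.5 FPKM in 3 or more libraries, two-sided p and Benjamini-Hochberg adjustment over all genes. Exon overlaps and coordinates of gene models are from GENCODE 29, and promoter sequences from RefSeq (GRCh38.p14).

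The members and lists were chosen with earlier results of these data known. Genes named are all 34 members, the checks of the labels, and of the further replication genes those past the test plus the 2 largest others; GINS4, RRM2B and the E2F genes that did not pass are named as parts of a complex or family. Replicates differed by more than sampling noise in every pair, as chi-square divided by genes was at least 3.77 within the knockdowns and 11.5 within the controls, and 70.2 and 80.2 for control 1 against controls 2 and 3. Alternatives were other scaling, pseudocounts of 1 and 0.01 FPKM, no filter, a filter at 1 FPKM, limma-voom on the recovered reads, no trend, a threshold of 0.01, a block for the replicate number and each library left out. Python 3.11.15 with pandas 2.3.3 was used for the rest.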

Additional observations from a re-analysis of the deposited data

How the results depend on the processing

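RRM2 and E2F1 kept their direction under every alternative and remained called with both scalings, limma-voom, both pseudocounts, the filter at 1 FPKM and without control 1. GINS3 kept its direction throughout and was lost with size factors on all 6 libraries, by limma and by limma-voom. With size factors and without control 1 GINS3 was called (limma adjusted p = 0.0399). With no filter, no mean-variance trend, an adjusted p under 0.01 or a replicate block, limma called 0 of the 34 genes. It also called 0 further replication genes and 0 mitosis genes, and 42, 91, 0 and 0 of all genes. In the same order 8, 6, 8 and 7 of the 34 had an unadjusted p under 0.05 (limma). Among all genes 8020 (of 40111), 5661, 6050 and 5990 had one. Deviations from the group mean correlated weakly between same-numbered libraries (0.15, 0.08 and 0.04 for numbers 1, 2 and 3). Between libraries of different number the correlations ran from -0.13 to 0.10. Correlations this weak cannot settle whether the numbers pair the libraries. Leaving out each library in turn gave between 0 and 17 calls among the 34 genes, 0 and 32 among the further replication genes, 0 and 22 among mitosis genes and 0 and 8093 among all genes. All counts above 0 came without control 1, and the median of the 34 ranged from -0.1094 to 0.006577. Without each of the other 5 libraries between 5 and 9 of the 34 had an unadjusted p under 0.05 (limma), beside 3676 to 4530 of all genes. Limma-voom called 3130 genes in all, 4 of the 34 (MCM3 added), 18 further and 12 mitosis genes. With size factors 3 further and 2 mitosis genes were called and the median of the 34 was -0.15. Limma-voom with size factors, chosen after the data were seen, called 2641 genes, 7 of the 34 (all lower) and 7 mitosis genes, with a median of -0.16. Size factors without control 1, also chosen afterwards, gave 8518, 21, 40 and 22 in the order all, the 34, further and mitosis, with a median of -0.27. Scaling changed the split of calls among all genes from 768 higher and 382 lower to 338 and 495.

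The genes that reversed lay between -0.09 and 0.12 with all libraries and total reads, and did not pass there. With size factors MCM2 had -0.0401, MCM10 -0.10, CDC45 -0.069, GINS2 -0.0056, POLA1 -0.0136, POLE -0.0134, RFC2 -0.0649, TYMS -0.11, TK1 -0.0649, UHRF1 -0.006 and CCNE1 -0.0445. Limma-voom with size factors gave the same genes -0.0427, -0.10, -0.0726, -0.0103, -0.0072, -0.0097, -0.0667, -0.13, -0.0748, -0.0096 and -0.0375 in that order. Size factors without control 1 gave MCM2 -0.13, MCM10 -0.19, CDC45 -0.14, GINS2 -0.0628, RFC2 -0.11, TYMS -0.31, TK1 -0.20 and UHRF1 -0.11, and MCM10 and CDC45 passed as falls there (limma adjusted p of 0.0142 and 0.0336, and up to 0.923 and 0.703 under the other alternatives). Limma-voom gave TYMS -0.0111. Over single libraries left out, MCM10 ranged from -0.0249 to 0.0491, PRIM1 from -0.27 to 0.0151, POLE2 from -0.0702 to 0.0633, PCNA from -0.12 to 0.04, TYMS from -0.15 to 0.15, TK1 from -0.0374 to 0.13, CCNE1 from -0.0303 to 0.21 and CCNE2 from -0.10 to 0.05. The causes were not tested. The fewest reads of any of the 34 genes in a library were 510.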
